A study of Mus musculus with 4 samples.

Results

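The genes described here encode the aminoacyl-tRNA synthetases of mouse CD4+ T cells, the enzymes that load each tRNA with its amino acid. They were chosen by gene symbol from the deposited tables, 36 genes of 37583 features, of which 20 encode cytosolic enzymes and 16 encode mitochondrial enzymes with symbols ending in 2. The choice was made with earlier results of these data known, so the ratios between inhibitor and control libraries below are a description and no member carries a p-value. Naive CD4+ T cells from spleens of C57BL/6 mice were stimulated through CD3 and CD28, on plate-bound antibodies. Every culture received 10 ng/ml IL-1β, 10 ng/ml IL-6, 20 ng/ml IL-23 and 10 µg/ml each of antibodies to IL-4 and IFN-γ, a Th17 culture that the labels call aTh17. One library came from cells with 1.5 µM DMAT and another from cells with 1 µM CX4945, both inhibitors of the protein kinase CK2 given for 24 h, and the titles name a control library without inhibitor for each. Each of the 4 groups held 1 library, and neither the age of the mice nor any pooling of animals was given in the sources used here.

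Cytosolic synthetases charge the tRNAs used by ribosomes in the cytosol, and a separate set, encoded in the nucleus and imported, charges the tRNAs of mitochondria. Gars and Kars are known to supply both compartments from 1 gene each. Several cytosolic synthetases sit together in the multi-synthetase complex, held by the scaffold proteins AIMP1, AIMP2 and EEF1E1. Many cytosolic synthetase genes are known targets of ATF4, the transcription factor of the amino acid response, whose protein binds C/EBP-ATF elements in promoters. T cells that leave quiescence raise protein synthesis, and tRNA charging with it.

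Exon reads numbered 2056635 to 2772525 per library. Of the CD4 T cell markers 6 of 6 had reads, with a summed level of 2094 to 2298 CPM (reads per 1000000 scaled exon reads). The defining markers Ms4a1 and Cd79b of B cells, Lyz2 and Itgam of myeloid cells and Ncr1, Klrb1c and Klrk1 of NK cells were at 0 in every library, and the B cell list summed to at most 1.44 CPM, the myeloid list to at most 0.721 CPM and the CD8 list (Cd8a and Cd8b1) to at most 4.91 CPM. The plasma cell marker Sdc1 lay between 4.37 and 9.81 CPM. A bulk library cannot tell a change in the number of cells from a change in RNA per cell.

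All 36 members were measured well above the limit of 3 reads that a count of 0 allows (1.08 to 1.46 CPM). The lowest count was 18 reads, for Ears2, the mitochondrial glutamyl-tRNA synthetase, with CX4945. Levels were compared between genes as RPKM (CPM per kilobase of the deposited exon length). The median cytosolic synthetase stood at 78.1 RPKM in the control for DMAT, 71.1 with DMAT, 70.8 in the control for CX4945 and 70.1 with CX4945. The median mitochondrial synthetase stood at 12.7, 13.3, 12.5 and 12.5 RPKM in the same order. The cytosolic set was thus several times above the mitochondrial set in every library, and the medians of both sets were close across libraries.

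**Figure D1:**
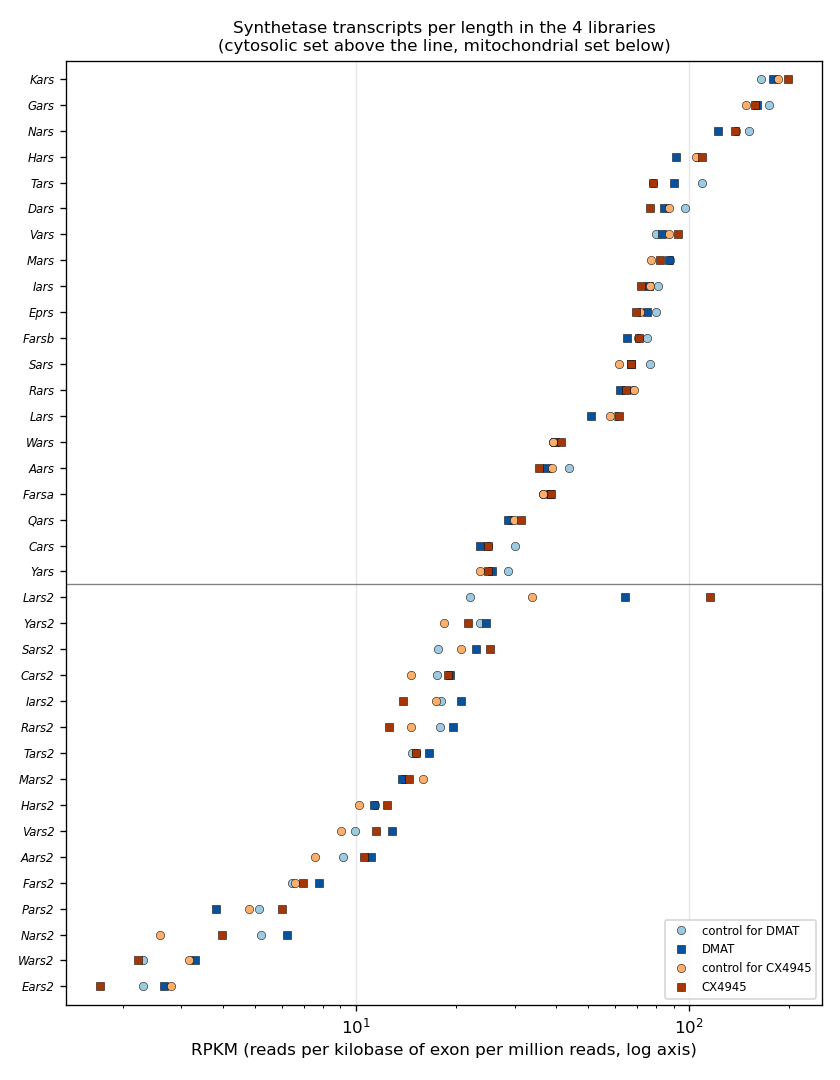
RPKM (log axis) of the 36 synthetase genes in the 4 libraries, 1 point per library, with the 20 cytosolic genes above the grey line and the 16 mitochondrial genes below it. Kars and Gars lie highest and Ears2 and Wars2 lowest, and Lars2 is the gene whose 4 points lie furthest apart, from 22.1 to 116 RPKM.

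The highest levels per length belonged to 3 cytosolic genes. Kars, the lysyl-tRNA synthetase gene, lay at 165 RPKM in the control for DMAT, 179 with DMAT, 185 in the control for CX4945 and 198 with CX4945. Gars, the glycyl-tRNA synthetase gene, lay at 174, 160, 149 and 158 RPKM, and Nars, for asparagine, at 151, 122, 138 and 138 RPKM. Their ranges over the 4 libraries overlapped for Kars and Gars and for Gars and Nars, so the order of neighbours is not settled by these libraries. The lowest mean levels over the 4 libraries were those of Ears2 (2.31, 2.67, 2.80 and 1.72 RPKM), Wars2, the mitochondrial tryptophanyl-tRNA synthetase gene (2.30, 3.30, 3.16 and 2.23 RPKM), and Nars2, its counterpart for asparagine (5.22, 6.24, 2.60 and 3.97 RPKM). Pars2, for proline, was below Nars2 in both libraries of the DMAT experiment, at 5.12 and 3.81 RPKM. The deposited exon length can be long where many transcripts are annotated, as in Aars with 9282 bases and 7 transcripts against 2390 bases and 1 transcript in Gars, and a longer length lowers an RPKM.

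For 13 amino acids the cytosolic and the mitochondrial enzyme have a gene each. Leaving out leucine, the cytosolic gene was above its mitochondrial partner in each of 12 pairs and 4 libraries, by a factor of 1.04 to 53.3 per length. The partners for tyrosine were closest, with a ratio of Yars to Yars2 of 1.21, 1.04, 1.28 and 1.15, and those for asparagine furthest apart, with ratios of Nars to Nars2 of 29.0, 19.5, 53.3 and 34.7. Leucine was the pair in which the order turned, in total exon reads only. Lars over Lars2 was 2.75 in the control for DMAT and 1.72 in the control for CX4945, but 0.791 with DMAT and 0.532 with CX4945. In reads across a splice junction Lars stayed above Lars2 in every library. Lars had 265, 182, 216 and 183 such reads in the order of the libraries above, and Lars2 had 22, 26, 11 and 17.

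Lars2, which encodes the mitochondrial leucyl-tRNA synthetase (mm9 chromosome 9, 123276058 to 123371782), had 238 exon reads in the control for DMAT, 635 with DMAT, 300 in the control for CX4945 and 915 with CX4945. Both inhibitor libraries were above both control libraries. In RPKM these were 22.1, 64.2, 33.8 and 116, which is 2.91-fold higher with DMAT (95% counting interval 2.50 to 3.39) and 3.43-fold higher with CX4945 (3.004 to 3.92). The controls also differed, that for CX4945 being 1.53-fold above that for DMAT (1.29 to 1.82). Against the control of the other experiment, the log2 ratio of Lars2 was 0.92 with DMAT in place of 1.53, and 2.38 with CX4945 in place of 1.77.

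Fold thresholds were applied to log2 ratios with a prior count of 2, which draws ratios of few reads toward 1. Lars2 was the single member at least 2-fold higher with DMAT, where 1.09% of 9649 genes were, and the single one at least 2-fold higher with CX4945, where 0.887% of 9358 genes were. In a fit of both experiments together (edgeR quasi-likelihood, the pair as a block, Benjamini-Hochberg adjusted p under 0.05) Lars2 was also the single member called, of 36 tested, with a log2 fold change of 1.66. That fit called 0.975% of 9538 genes, 0.388% higher and 0.587% lower. The choice of members rests on this contrast, so nothing is read from these counts. Lars2 was not called in the fit without the block, nor in fits that left out either control library.

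Most of the added Lars2 reads crossed no splice junction. A read that lies inside 1 exon of a spliced RNA crosses none either, so these reads do not show unspliced RNA. Exon-exon reads, which cross a splice junction, numbered 22 in the control for DMAT, 26 with DMAT, 11 in the control for CX4945 and 17 with CX4945. Their ratio was 1.29 with DMAT (0.702 to 2.38) and 1.74 with CX4945 (0.767 to 4.10), intervals that hold 1. All other exon reads of Lars2 numbered 216, 609, 289 and 898, with ratios of 3.07 (2.63 to 3.60) and 3.49 (3.05 to 3.999). The intervals of exon-exon and other reads did not overlap with DMAT and did with CX4945.

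Reads of Lars2 that fit several places in the genome differed most. They numbered 58 in the control for DMAT, 238 with DMAT, 95 in the control for CX4945 and 378 with CX4945, or 24.4%, 37.5%, 31.7% and 41.3% of its exon reads. Their ratio was 4.47 with each inhibitor (3.34 to 6.07 with DMAT and 3.56 to 5.66 with CX4945). Reads that fit 1 place and crossed no junction had ratios of 2.56 (2.12 to 3.10) and 3.01 (2.55 to 3.57). Both kinds of read without a junction were therefore above the controls beyond counting error.

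**Figure D2:**
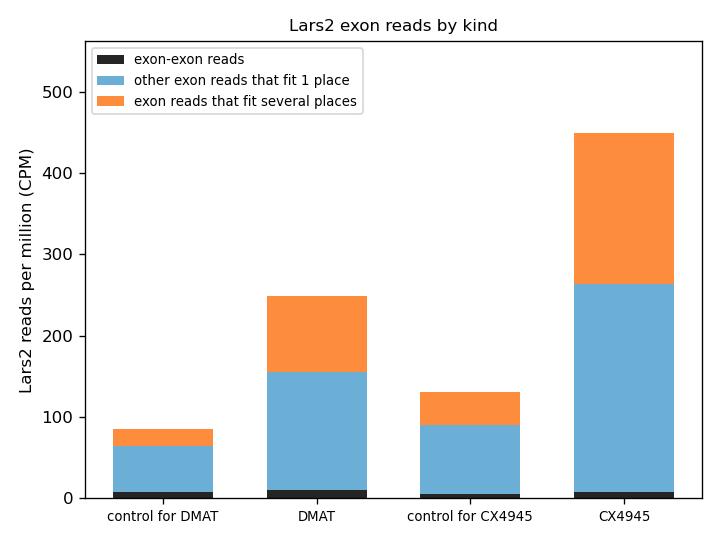
Lars2 exon reads in CPM in the 4 libraries, stacked by kind, with 1 library per bar and no error bar. The dark share of exon-exon reads (22, 26, 11 and 17 reads) stays small, while reads that fit several places (58, 238, 95 and 378 reads) and other exon reads make up the taller bars with both inhibitors.

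No cytosolic synthetase gene had as low a share of exon-exon reads as Lars2. Exon-exon reads made up 9.24% of Lars2 exon reads in the control for DMAT (exact 95% binomial interval 5.88 to 13.7%), 4.09% with DMAT (2.69 to 5.94%), 3.67% in the control for CX4945 (1.84 to 6.47%) and 1.86% with CX4945 (1.09 to 2.96%). In the cytosolic set the share ran from 16.9% (CX4945) to 50.6% (control for CX4945), with medians of 33.4% to 35.1%. The median gene with at least 20 reads had 19.1% to 19.7%. Among the other mitochondrial genes with introns, Pars2, Wars2, Ears2 and Fars2 had a share below 9.24% in at least 1 library, on 18 to 50 reads a library. Mars2 has 1 annotated exon and no junction.

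The leucyl pair, with nearly equal exon lengths, showed the same contrast in coverage. Lars, the cytosolic gene, has 3861 bases of exon and had a median coverage over its bases of 8 reads in the control for DMAT and 6 in each of the other libraries. Lars2 has 3881 bases of exon and had a median coverage of 1, 2, 1 and 1 reads, although with both inhibitors it held more exon reads than Lars (635 against 500 with DMAT, 915 against 484 with CX4945). The Lars2 reads were thus not spread evenly over its exons. In GENCODE M21 the Lars2 transcript of 3894 bases shares a stretch of 72 bases with a transcript of Gm15564 at 98.6% identity, at bases 3278 to 3349 and so behind its stop codon, which ends at base 2908, and that stretch lies in the 3′ untranslated part. Gm15564 had 0, 5, 2 and 7 exon reads in the 4 libraries, and none of them fit 1 place only. The Lars2 transcript also matched AA474408 over 196 bases at 80.1% identity (bases 3163 to 3349). Ifitm10 matched it over 70 bases at 82.9% identity (bases 3741 to 3809). Which other places the Lars2 reads fit was not tested.

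AY036118, a feature on mm9 chromosome 17 whose GENCODE M21 transcript is identical over 923 bases to an annotated ribosomal RNA, was also higher with both inhibitors. It had 77 reads in the control for DMAT, 197 with DMAT, 68 in the control for CX4945 and 186 with CX4945, a ratio of 2.79 (2.13 to 3.68) and 3.07 (2.32 to 4.12). All of its exon reads fit 1 place, unlike those of Lars2. The blastn match listed no stretch shared by the AY036118 and Lars2 transcripts. The part of AY036118 in the Lars2 values was not tested. Between the controls AY036118 differed little, with a ratio of 1.07 (0.762 to 1.51), where Lars2 differed by 1.53.

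Without Lars2, the summed level of the mitochondrial synthetases was slightly higher with DMAT, and with CX4945 its interval held 1. Their 15 genes summed to 681 CPM in the control for DMAT, 767 with DMAT, 636 in the control for CX4945 and 656 with CX4945, a ratio of 1.13 with DMAT (1.06 to 1.20) and 1.03 with CX4945 (0.957 to 1.11). With Lars2 the sums were 766, 1016, 767 and 1106 CPM, and the ratios 1.33 and 1.44. The 1 gene thus carried most of the summed difference of the set.

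The median log2 ratio of the 16 mitochondrial genes was 0.20 with DMAT and 0.25 with CX4945, or 0.20 and 0.23 without Lars2, where the median over all genes was 0.00 in each pair. With DMAT 13 of the 16 stood above their control (50.7% of all genes did), with CX4945 10 of 16 (50.9%), and 8 of 16 with both (27% of all genes). Few of these differences exceed counting error, and most of these genes had far fewer reads than the cytosolic ones. The counting interval left out a ratio of 1 on the higher side for Lars2, Iars2 and Vars2 with DMAT (9.21% of all genes) and for Lars2 alone with CX4945 (7.41%). On the lower side it did so for Iars2 with CX4945 (7.33% of all genes).

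Vars2, the mitochondrial valyl-tRNA synthetase gene, had 151, 179, 113 and 128 reads, or 9.96, 12.9, 9.05 and 11.5 RPKM. Each inhibitor library was above both controls. The ratio was 1.29 with DMAT (1.03 to 1.61) and 1.27 with CX4945 (0.980 to 1.65). Its exon-exon reads alone gave a log2 ratio of -0.09 with DMAT, on the other side of the control, and 0.71 with CX4945, on the same side.

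Sars2, for serine, and Aars2, for alanine, had a like pattern with fewer reads. Sars2 had 91, 109, 88 and 96 reads and ratios of 1.31 (0.979 to 1.74) and 1.23 (0.908 to 1.66). Aars2 had 85, 95, 58 and 72 reads and ratios of 1.22 (0.899 to 1.65) and 1.39 (0.973 to 2.01). All 4 intervals hold 1, so these differences were not detectable at this depth.

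Iars2, the mitochondrial isoleucyl-tRNA synthetase gene, stood on opposite sides with the inhibitors. It lay at 18.1 RPKM in the control for DMAT and 20.7 with DMAT, and at 17.5 in the control for CX4945 and 13.9 with CX4945. The controls nearly coincide and the inhibitor libraries lie on either side of them. The ratios were 1.15 (1.004 to 1.31) and 0.794 (0.673 to 0.936), and the difference between the inhibitors, which differ in dose and experiment too, was not tested. Ears2 was the single member at least 1.5-fold lower with CX4945 (4.2% of all genes), with 33 reads in the control and 18 with CX4945, a ratio of 0.613 (0.325 to 1.12).

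Nars2 differed more between the controls than with an inhibitor. It had 61 reads in the control for DMAT, 67 with DMAT, 25 in the control for CX4945 and 34 with CX4945. Between the controls the ratio was 0.498 (0.299 to 0.805), while the ratios within pairs were 1.20 (0.833 to 1.72) with DMAT and 1.53 (0.885 to 2.67) with CX4945, the latter just under 1.5-fold with the prior count (log2 0.58). Both libraries of the CX4945 experiment were below both of the DMAT experiment.

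**Figure D3:**
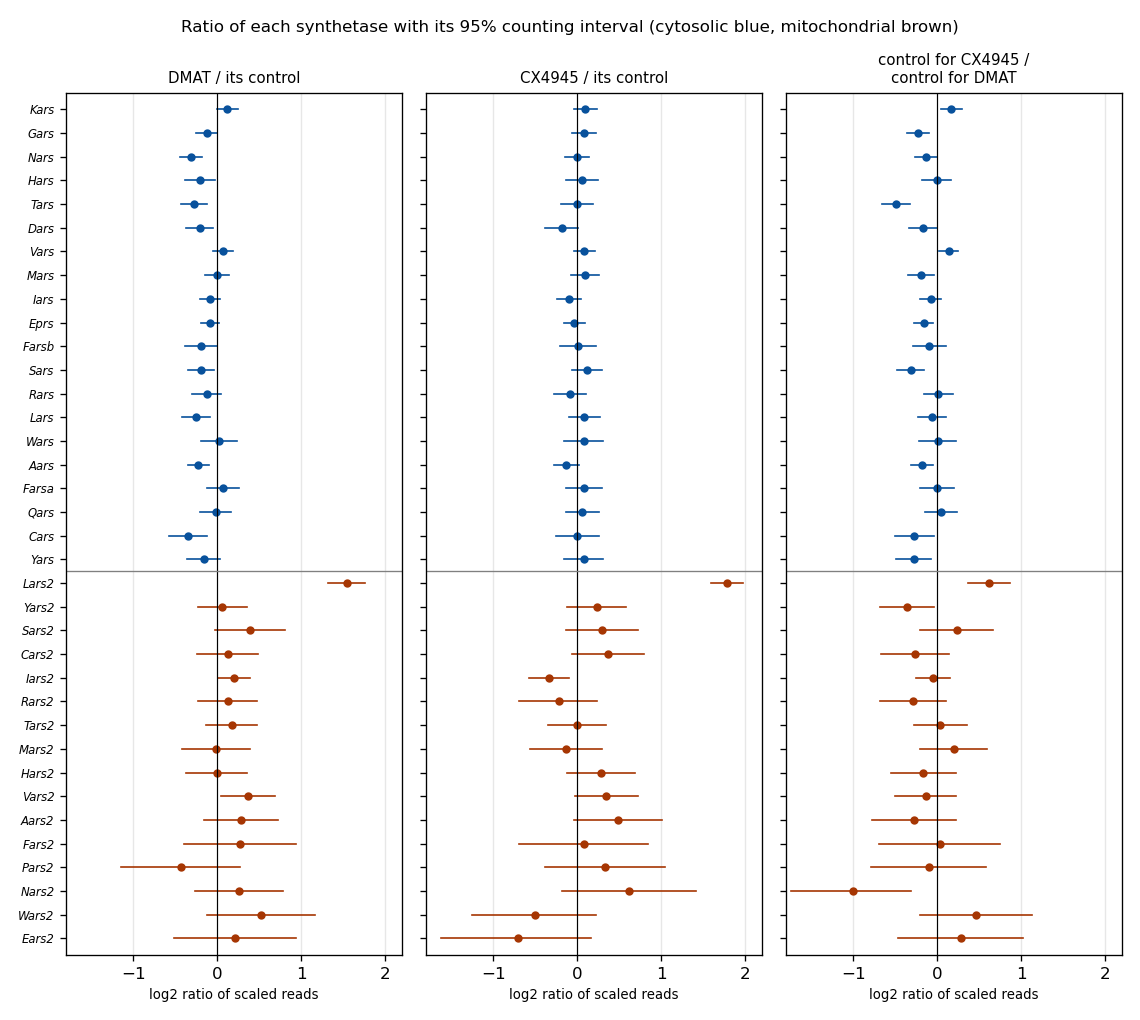
Log2 ratio of scaled exon reads for each synthetase gene, with DMAT over its control (left), CX4945 over its control (middle) and the control for CX4945 over the control for DMAT (right). Points are single ratios of 1 library to 1 library and lines are 95% counting intervals. Lars2 is the only point beyond 1 on the log2 axis with an inhibitor, and the cytosolic genes (blue) lie between -0.34 and 0.12 in the left panel and between -0.18 and 0.12 in the middle panel.

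The cytosolic synthetases were slightly lower with DMAT and near their control with CX4945. Their median log2 ratio was -0.14 with DMAT and 0.06 with CX4945, and none of the 20 reached 1.5-fold with DMAT (4.55% of all genes higher, 4.85% lower) or CX4945 (4.03% and 4.2%). The 20 genes summed to 5791 CPM in the control for DMAT, 5345 with DMAT, 5387 in the control for CX4945 and 5448 with CX4945. The ratio of the sums was 0.923 with DMAT (0.902 to 0.944) and 1.01 with CX4945 (0.986 to 1.04). The control for DMAT was the library that stood above the other 3.

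With DMAT 16 of 20 cytosolic genes stood below their control (49.3% of all genes did), and for 9 of them the counting interval left out 1 (9.74% of all genes). The cytosolic genes have more reads than most genes, and so narrower intervals. With CX4945 7 of the 20 stood below their control (49.1%), and no cytosolic interval left out 1. Against the control for DMAT in place of its own, the median with CX4945 turned to -0.12.

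The control for CX4945 was itself lower than the control for DMAT in this set, with a median log2 ratio of -0.11, and the interval left out 1 for 8 cytosolic genes on the lower side (9.25% of all genes) and for Kars and Vars on the higher side (9.4%). The comparisons share the control for DMAT. Of the 20 genes 12 had their highest level of the 4 libraries in the control for DMAT, namely Aars, Cars, Dars, Eprs, Gars, Iars, Mars, Nars, Sars, Tars, Yars and Farsb. Kars, Vars, Hars, Lars, Qars, Wars and Farsa were highest with CX4945, and Rars in the control for CX4945. The share of all genes at their highest in each library was not computed, so nothing is read from these counts.

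**Figure D4:**
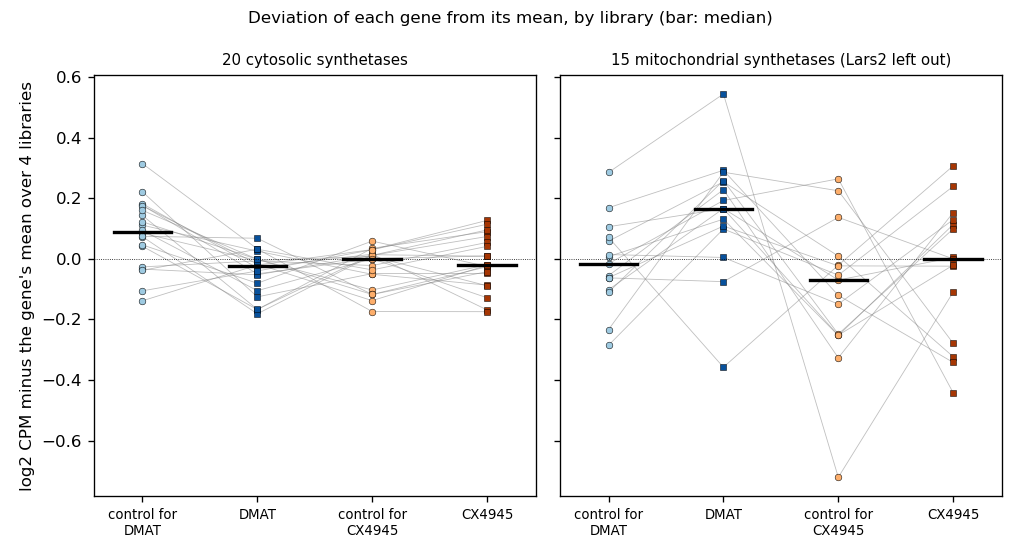
Log2 CPM of each gene minus its own mean over the 4 libraries, for the 20 cytosolic genes (left) and for 15 mitochondrial genes without Lars2 (right). Points are genes, grey lines join a gene's values and black bars are medians over genes. In the left panel the control for DMAT has the highest median (0.09), and in the right panel DMAT has it (0.17).

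Among the cytosolic genes, Tars, for threonine, showed the control for DMAT standing apart most clearly. It lay at 110 RPKM in the control for DMAT, 90.4 with DMAT, 78.3 in the control for CX4945 and 78.3 with CX4945. The DMAT library was below its own control and above both libraries of the other experiment. The ratio was 0.823 with DMAT (0.739 to 0.915), 1.00 with CX4945 (0.874 to 1.14) and 0.713 between the controls (0.635 to 0.7996). Sars, for serine, had a like order, with 76.6, 67.1, 61.7 and 66.9 RPKM. For both genes the log2 ratio with DMAT changed sign against the other control, to 0.21 for Tars and 0.12 for Sars.

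Cars, for cysteine, had the lowest ratio with DMAT in the cytosolic set, at 0.786 (0.672 to 0.919). Its levels were 30.1 RPKM in the control for DMAT, 23.6 with DMAT, 24.9 in the control for CX4945 and 24.9 with CX4945. Nars followed, with a ratio of 0.807 with DMAT (0.736 to 0.884) and 0.996 with CX4945 (0.901 to 1.10). Lars, the cytosolic leucyl-tRNA synthetase gene, stood at 60.7, 50.8, 58.1 and 61.6 RPKM, with ratios of 0.838 (0.744 to 0.943) and 1.06 (0.934 to 1.20). The ratio of Lars thus lay below 1 with DMAT while that of Lars2 was far above it.

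Aars and Dars were among the genes below their control with both inhibitors. Aars, for alanine, lay at 43.8, 37.5, 38.8 and 35.5 RPKM, with ratios of 0.855 (0.782 to 0.934) and 0.915 (0.825 to 1.01). Dars, for aspartate, lay at 97.7, 84.4, 87.1 and 76.6 RPKM, with ratios of 0.864 (0.770 to 0.968) and 0.880 (0.769 to 1.01). In all, 7 of the 20 cytosolic genes were below their control with both inhibitors (25.7% of all genes) and 4 above with both (27%). The remaining 9 were on opposite sides, as were 4383 of 9262 genes. Hars, Sars and Farsb complete the genes whose interval left out 1 with DMAT, with ratios of 0.865, 0.875 and 0.871.

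Kars was below its control with neither inhibitor. Its ratios were 1.09 with DMAT (0.994 to 1.18), 1.07 with CX4945 (0.975 to 1.17) and 1.12 between the controls (1.03 to 1.23). The 8 enzymes of the multi-synthetase complex had a median log2 ratio of -0.09 with DMAT and 0.01 with CX4945. Of the scaffold genes, Aimp1 had log2 ratios of 0.02 and 0.12, Aimp2 of 0.14 and 0.15 and Eef1e1 of -0.28 and 0.04. Eef1e1 had the order of the cytosolic set, with 133 RPKM in the control for DMAT, 110 with DMAT, 118 in the control for CX4945 and 121 with CX4945.

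By enzyme class, which follows the fold of the catalytic domain, the 9 class I cytosolic genes had a median log2 ratio of -0.09 with DMAT and 0.07 with CX4945. The 10 class II genes had medians of -0.20 and 0.03. Eprs, which joins a class I and a class II enzyme in 1 protein, had -0.09 and -0.04. The classes were not compared by a test.

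The 12 cytosolic synthetases known as ATF4 targets had a median log2 ratio of -0.18 with DMAT, 0.04 with CX4945 and -0.18 between the controls. Of 19 other ATF4 targets 15 were at their highest in the control for DMAT too, but Shmt2 and Aldh18a1 were so with DMAT, Pycr1 in the control for CX4945 and Slc7a5 with CX4945. The share of all genes at their highest in the control for DMAT was not computed, so nothing is read from the count of 15. Atf4 itself lay at 307 RPKM in the control for DMAT, 212 with DMAT, 210 in the control for CX4945 and 208 with CX4945. Asns, the asparagine synthetase gene, lay at 19.0, 12.3, 5.12 and 5.39 RPKM, and the stress gene Trib3 at 11.5, 2.96, 1.03 and 2.54 RPKM. Of these 19 genes 18 entered the DMAT pair and 16 were below their control (49.3% of all genes), with a median of -0.29, against -0.04 for 15 genes with CX4945 and -0.37 for 18 genes between the controls. The interval left out 1 on the lower side for 11 of the 18 with DMAT (9.74% of all genes). Between the controls, a comparison that shares the control for DMAT with the former, it did so for 11 of the 18 (9.25% of all genes). With CX4945 the interval left out 1 on the lower side for 4 of the 15, Atf5, Ddit4, Sesn2 and Aldh18a1 (7.33% of all genes). The part of this difference between libraries in the synthetase ratios was not tested.

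Promoter sequences from RefSeq (GRCm38.p6, 250 bases before to 50 after the start site) from a later build than the tables, were found for 27 of the 36 members, 1 of them under a newer symbol. The C/EBP-ATF element was searched as TGATGNAA and the E-box, a MYC-type element, as CACGTG, on both strands, and no 2 matches overlapped. The element was present in 5 of 13 cytosolic promoters (Aars, Gars, Iars, Tars and Yars) and 0 of 14 mitochondrial ones, where 3.97% of 32851 promoters of the same length hold it. The E-box was present in 4 of 13 cytosolic promoters (Aars, Farsb, Iars and Tars) and 1 of 14 mitochondrial ones (Ears2), where 7.15% of all promoters hold it. A match describes letters in this window and is not a binding site shown by these data, and an absent match says only that the letters are not in it. Of the 12 cytosolic genes highest in the control for DMAT, 10 had a promoter, of which 5 held the element and 5 (Dars, Eprs, Mars, Sars and Farsb) did not. Of the other 8 genes 3 had a promoter, all without it. The 5 promoters with the element are printed 5′ to 3′ along the gene, to show its letters and place, with both motifs in capitals. The Lars2 promoter, which holds neither motif, is printed beside them because Lars2 is the member that differed most.
Aars, chr8:111033592-111033891, plus strand: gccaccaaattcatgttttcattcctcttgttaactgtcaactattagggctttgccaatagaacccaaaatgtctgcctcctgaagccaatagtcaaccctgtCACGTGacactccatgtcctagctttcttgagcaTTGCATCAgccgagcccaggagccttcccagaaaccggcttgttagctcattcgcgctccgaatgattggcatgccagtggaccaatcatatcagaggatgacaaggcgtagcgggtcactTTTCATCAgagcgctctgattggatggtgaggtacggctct
Gars, chr6:55037751-55038050, plus strand: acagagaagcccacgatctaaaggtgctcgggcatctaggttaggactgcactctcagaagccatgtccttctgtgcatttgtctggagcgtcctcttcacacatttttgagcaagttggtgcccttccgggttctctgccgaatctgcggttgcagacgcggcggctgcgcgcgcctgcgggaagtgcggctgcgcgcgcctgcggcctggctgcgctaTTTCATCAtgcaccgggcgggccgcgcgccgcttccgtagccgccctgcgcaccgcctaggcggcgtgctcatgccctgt
Iars, chr13:49681880-49682179, plus strand: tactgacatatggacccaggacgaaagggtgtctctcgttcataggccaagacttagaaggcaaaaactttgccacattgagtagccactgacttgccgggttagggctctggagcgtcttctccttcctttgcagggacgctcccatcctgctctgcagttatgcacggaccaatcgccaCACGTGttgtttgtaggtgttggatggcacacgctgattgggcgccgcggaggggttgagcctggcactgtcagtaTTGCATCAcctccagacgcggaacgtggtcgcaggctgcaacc
Tars, chr15:11399609-11399908, minus strand: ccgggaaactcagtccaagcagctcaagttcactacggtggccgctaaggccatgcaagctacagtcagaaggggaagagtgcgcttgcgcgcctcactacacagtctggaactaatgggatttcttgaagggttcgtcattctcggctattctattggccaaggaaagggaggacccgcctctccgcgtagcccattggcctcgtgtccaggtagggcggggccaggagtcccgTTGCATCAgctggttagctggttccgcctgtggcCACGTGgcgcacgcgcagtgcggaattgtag
Yars, chr4:129189653-129189952, plus strand: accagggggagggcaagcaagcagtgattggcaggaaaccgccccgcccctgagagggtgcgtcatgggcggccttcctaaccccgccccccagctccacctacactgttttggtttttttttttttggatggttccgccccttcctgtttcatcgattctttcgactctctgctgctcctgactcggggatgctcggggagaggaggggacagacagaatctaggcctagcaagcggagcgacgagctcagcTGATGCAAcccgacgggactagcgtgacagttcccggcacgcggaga
Lars2, chr9:123366677-123366976, plus strand: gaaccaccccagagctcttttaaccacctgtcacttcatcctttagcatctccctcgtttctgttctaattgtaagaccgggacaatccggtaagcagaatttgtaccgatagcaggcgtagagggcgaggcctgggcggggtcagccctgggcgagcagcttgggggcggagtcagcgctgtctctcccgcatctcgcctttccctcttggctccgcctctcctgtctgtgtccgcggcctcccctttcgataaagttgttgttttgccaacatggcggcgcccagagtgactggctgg

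In these sequences the element is spelled on the minus strand in Aars, Gars, Iars and Tars and on the plus strand in Yars. It begins 30 bases before the start site in Gars and 15 before it in Tars, and behind the start site in Iars and Yars, at bases 8 and 4. Aars holds it at 2 places, 112 bases before and 10 behind the start site. Of these 5 genes the ratio with DMAT lay below 1 in each, from 0.823 for Tars to 0.939 for Iars, where 16 of all 20 cytosolic genes lay below 1. The 5 genes highest in the control for DMAT whose promoters lack the element lay below 1 too, from 0.864 to 0.996. A gene highest in the control for DMAT must have a ratio below 1 with DMAT. The 5 genes with the element were all highest there as well, so nothing about the element is read from these ratios.

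The other genes of tRNA charging measured here were near their controls. Of 14 that entered the DMAT pair, 8 stood above (50.7% of all genes) and 6 below their control, with a median log2 ratio of 0.02. Of 13 in the CX4945 pair 9 stood above (50.9%) and 4 below, with a median of 0.06. Pet112l, which encodes a subunit of the mitochondrial amidotransferase that makes glutaminyl-tRNA, had 17, 30, 11 and 16 reads and ratios of 1.92 (1.03 to 3.72) and 1.63 (0.712 to 3.89). It was the single gene of this list at least 1.5-fold higher with DMAT (4.55% of all genes), and also with CX4945 (4.03%), on 11 to 30 reads a library.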

How the data were processed

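RNA was measured by sequencing in 4 libraries, 1 per group. Per the labels' protocols, total RNA was made into libraries with a TruSeq kit. The submitters' processing notes list CASAVA 1.8.2 and build mm9, and the aligner, the annotation, the strand setting and the counting rule are not given in the sources used here. The deposited tables give whole-number read counts per feature (total and unique exon reads, exon-exon reads, gene reads), made by the authors without normalization. The deposited median coverage is an unscaled signal per feature, per the file headers.

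TMM factors (edgeR 4.0.16 in R 4.3.3) gave the scaled library sizes. RPKM and CPM are reads over the scaled library size. Log2 ratios used a prior count of 2 and genes with at least 20 reads in a pair, and fold ratios used no prior count. With 1 library per group they have no replicate check. Counting intervals are exact conditional (Clopper-Pearson) 95% intervals and leave out every error but that of counting, as PCR copies of a molecule cannot be told apart. Both experiments were fitted together with edgeR's quasi-likelihood test, with the pair named in the titles as a block, for 9538 genes with at least 40 reads over the 4 libraries. No library copies another (chi-square over degrees of freedom 2.56 to 5.63 for pairs of libraries). Nothing says that the libraries come from separate animals, so the fit knows only the spread among these 4, possibly a technical one. Transcripts were matched with blastn 2.17.0. The members, lists and motifs were chosen with earlier results of these data known. Every member may be named. In full were those whose counting interval left out 1, the 3 highest and the 3 lowest, and partners for the same amino acid. Gm15564, Sars2, Aars2, Pet112l, Asns and Trib3 were singled out after their values were seen. The values of 1 gene of the charging list are not reported here. Alternatives were other scalings, prior counts, read kinds, filters and controls, DESeq2 1.42.0, no block and leaving out each library.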

Additional observations from a re-analysis of the deposited data

Results flagged for a closer look

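Iars2 was picked out because its interval left out a ratio of 1 on the higher side with DMAT (log2 0.20) and on the lower side with CX4945 (log2 -0.33). The difference between the inhibitors was not tested, since each is 1 library against 1 control, with another dose and another experiment.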

How the results depend on the processing

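Scaling by total exon reads or by DESeq2 size factors moved none of the 34 log2 ratios of 17 named members outside its counting interval, and neither did a prior count of 0.5. The median cytosolic log2 ratio minus the mitochondrial one kept its sign under every alternative run, from -0.34 to -0.28 with DMAT and from -0.22 to -0.17 with CX4945. With the other inhibitor's control, 17 of the 34 log2 ratios moved out of their interval and 11 changed sign, among them 2 whose interval had left out 1 (Sars 0.12 and Tars 0.21 with DMAT). The CX4945 medians then became -0.12 (cytosolic) and 0.0812 (mitochondrial), and 2 members were at least 1.5-fold higher with DMAT and 0 lower with CX4945. With unique reads 2 moved, and with exon-exon reads, which 31 ratios had, 9 moved and 5 changed sign, among them Vars2 with DMAT (-0.092), whose interval had left out 1. With exon-exon reads 0 members were 2-fold higher with either inhibitor. In place of 1 member, 0 (DMAT) and 4 (CX4945) were then 1.5-fold higher, and 0 were lower with CX4945, as at 100 reads. A prior count of 0.5 or unique reads gave 2 members 1.5-fold higher with CX4945. The share of all genes past a fold threshold was not computed under these alternatives, so nothing is read from their counts of members. With unique reads the ratio of summed mitochondrial CPM was 1.24 with DMAT and 1.27 with CX4945, and the exon-exon share of Lars2 was 6.55% and 3.17%. The joint fit called 93 genes (37 higher, 56 lower). Without the replicate block it called 1 gene (0 higher, 1 lower) and 0 members, DESeq2 3 (2 and 1), and without a filter 52 (17 and 35). Fits without the block that left out 1 library called 1 to 15 genes (0 to 8 higher, 1 to 7 lower) and 0 to 1 members, and assume that a lone library varies like the others. The cause was not tested. The mitochondrial genes apart from Lars2 had 18 to 469 reads a library, so small differences there were not detectable at this depth.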

Other observations

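In 3 synthetase genes more than 40% of the gene reads lay outside annotated exons in every library, namely Lars, Cars2 and Wars2. For Lars the share was 55.1% in the control for DMAT, 54.4% with DMAT, 54.6% in the control for CX4945 and 53.1% with CX4945, so it hardly differed between libraries. The median over the other members was 5.66% to 6.81%.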
